A study of Mus musculus with 2 samples.

Results

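The genes described here are 8 surface marker genes by which hematopoietic stem and progenitor cells are commonly recognised and sorted: Cd34, Procr, Cd27, Cd48, Slamf1, Ly6a, Cd93 and Ptprc. They were chosen by name from the 27998 genes of the count tables, and each was found once. Their transcripts were followed in 421 cells of the hematopoietic stem and progenitor cluster, spelled HPSC in the deposited cell table, among 10537 kept cells, and then in the other cell types of the same fetal liver.

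Blood stem cells and progenitors are told apart with antibodies against combinations of surface proteins, because no single protein marks them all. CD34 and CD93 are used to enrich fetal progenitors, CD150 (encoded by Slamf1) without CD48 and CD201 (encoded by Procr) are used to enrich stem cells, and CD45 (encoded by Ptprc) marks white blood cells and many of their progenitors. Several of these proteins are also made by endothelium or megakaryocytes, so the cell types in which each transcript was found matter for its use as a marker.

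The sample was 1 wild-type mouse liver at E12.5, of strain C57BL/6 by the sample labels and C57BL/6J by the study's supplement, with no allele altered and no treatment. It was dissociated, freed by cell sorting of debris, dead cells and doublets, and run as 2 technical replicate libraries on a droplet platform (Chromium, 10x Genomics). All kept cells were assigned by the authors to 9 cell types: HPSC, erythroid progenitors (Ery), erythroblasts (Eryb), primitive erythroblasts (EryP), granulocytic cells (G), monocytes and Kupffer cells (Mo/KC), megakaryocytes (Mk), endothelial cells (EC) and hepatoblasts (Hepa). With 1 liver there were no biological replicates, so no test between samples was possible, and every interval below is a 95% interval that covers counting error only.

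Library 1 held 5480 kept cells with a median of 6261 UMIs (unique molecular identifiers, counted molecules), and library 2 held 5057 with a median of 9774. HPSC numbered 213 and 208 cells with medians of 16053 and 14956 UMIs. The libraries shared 31 barcodes among kept cells and 0 among HPSC. The summed markers of G, Mo/KC, Mk, EC and Hepa were highest in the type they name. The summed level of the HPSC markers Myb, Kit and Gata2 was 203 CPM (UMIs per 1000000 counted) in HPSC and 203 in G. This sum did not separate the 2 types. The Ery markers Klf1, Gata1 and Epor summed to 899 CPM in Eryb and 874 CPM in Ery, with opposite orders in the 2 libraries. Mesenchyme markers (Col1a1, Col3a1 and Dcn) were highest in Mk, at 160 CPM. Mast cell and basophil markers (Cpa3, Ms4a2 and Mcpt8) were highest in G, at 147 CPM. B cell markers were highest in HPSC, at 15.7 CPM (8.41 and 23.7 CPM by library). The markers of G summed to 29644 CPM in G, but also to 5766 CPM in Mo/KC. That was above the 1060 CPM to which the markers of Mo/KC summed in Mo/KC itself. Whether these granulocytic transcripts had a part in the Mo/KC levels below was not tested. Megakaryocytes stood apart by library: their median depth was 5699 UMIs in library 1 and 16945 in library 2, and the summed level of the embryonic globins Hba-x and Hbb-y in them was 369 and 3812 CPM. That sum was also higher in library 2 in HPSC, at 341 and 1581 CPM, and in G, at 365 and 2087 CPM. In Ery it was 364 and 482 CPM and in Hepa 411 and 416 CPM. It was lower in library 2 in Mo/KC (329 and 309 CPM), EC (572 and 379 CPM), Eryb and EryP. The cell types were drawn by the authors from these same counts, so levels by cell type are a description and not a test.

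Each level below is the sum of a gene's UMIs in the cells of a type over all their UMIs, per 1000000. The 8 genes are described in 4 groups. Cd34, Cd48 and Ptprc were found in HPSC, Mo/KC and G, and Cd34 also in EC, where Cd48 and Ptprc had no UMI. Cd27 was high in HPSC alone. Procr, Ly6a and Cd93 were shared between HPSC and EC. Slamf1 had its highest level in Mk.

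**Figure D1:**
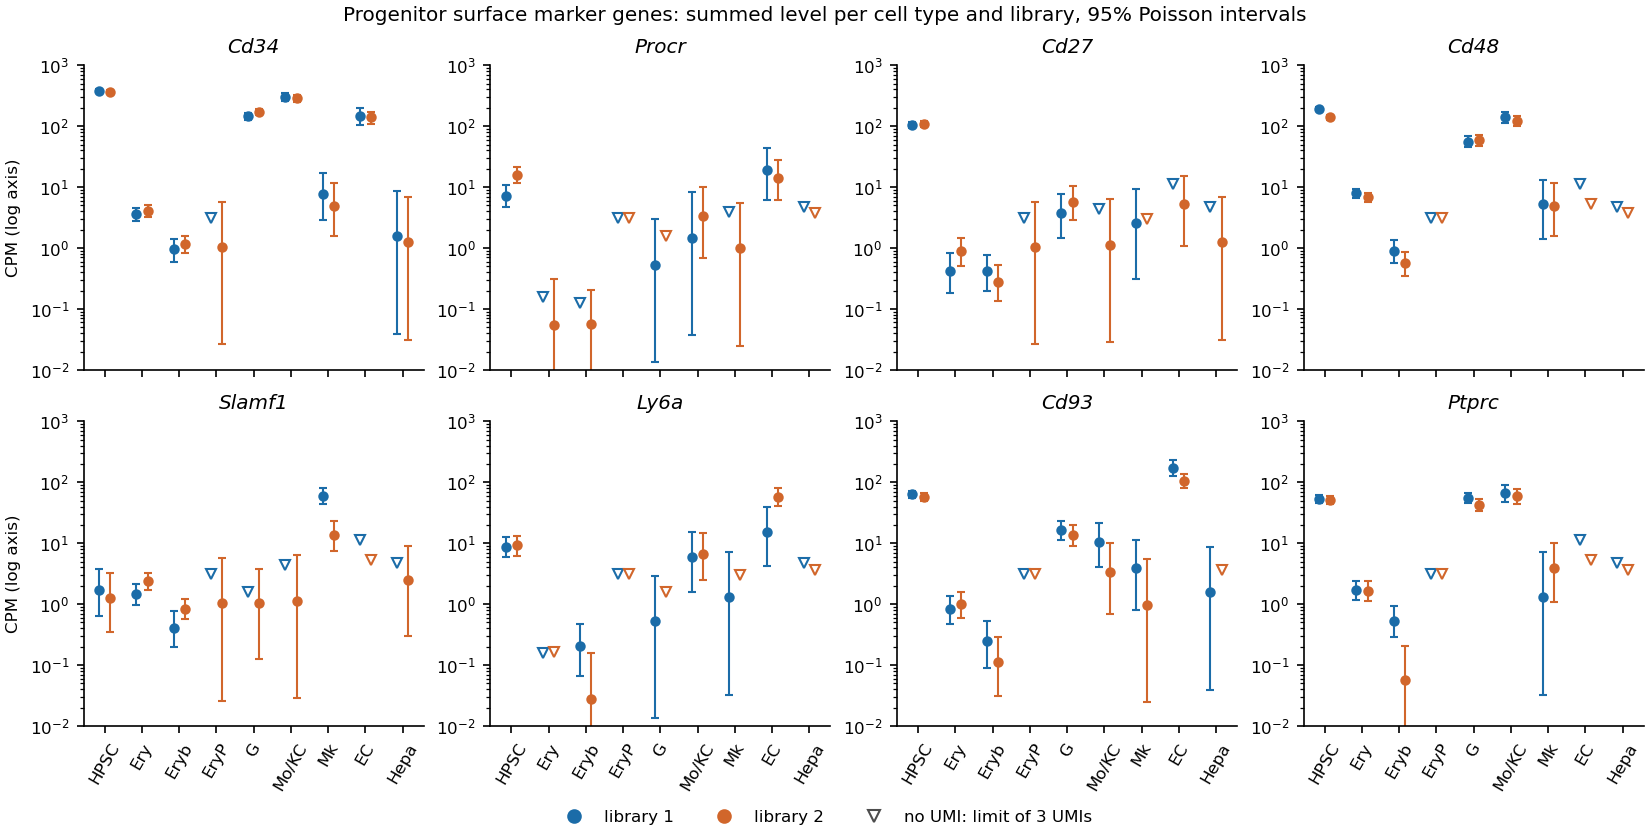
Summed level of each gene (CPM, log axis) in the 9 cell types, with 1 point per library and 95% Poisson intervals, where an open triangle is the limit that 0 UMIs allow (3 UMIs) and an interval may run below the axis. Cd34 sits at 377 CPM in HPSC over both libraries and Slamf1 at 33.6 CPM in Mk, where its 2 libraries lie apart.

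Cd34 encodes a sialomucin of progenitors and endothelium. The gene (ENSMUSG00000016494) lies on the plus strand of chromosome 1 at chr1:194938819-194961279 (GRCm38), and an annotated transcript on the other strand, Gm16897, overlaps it. In HPSC it reached 384 CPM in library 1 and 370.3 in library 2, or 377 CPM over both (363 to 393). Mo/KC followed at 301 and 286 CPM, then G at 145 and 174 CPM and EC at 145 and 139 CPM. The intervals of HPSC and Mo/KC did not overlap, whereas those of G and EC did. HPSC stood 1.29 times above Mo/KC (1.17 to 1.43) and 2.37 times above G (2.16 to 2.59). In Mk the level was 6.17 CPM, from 11 UMIs. Ery held 3.81 CPM and Eryb 1.07 CPM.

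Ptprc encodes CD45, the receptor tyrosine phosphatase of white blood cells. The gene (ENSMUSG00000026395) spans chr1:138062861-138175708 on the minus strand, with 13 annotated transcripts that a UMI count per gene does not tell apart. The annotated gene A130071D04Rik overlaps it on the same strand. Mo/KC held 66.3 CPM in library 1 and 58.7 in library 2, HPSC 53.6 and 51.5 CPM, and G 55.0 and 42.2 CPM. These 3 types could not be ordered: their pooled levels of 62.0, 52.6 and 48.6 CPM had overlapping intervals. Mk followed at 2.80 CPM and Ery at 1.67 CPM, and no UMI was found among the 828821 of EC, which allows up to 3.62 CPM.

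Cd48 encodes a small immunoglobulin-like ligand of the SLAM family, and Slamf1 encodes CD150, a receptor of the same family. Both lie on the plus strand of chromosome 1, Cd48 (ENSMUSG00000015355) at chr1:171682009-171705258 and Slamf1 (ENSMUSG00000015316) at chr1:171767127-171801184. Only 61868 bases separate them, with 0 annotated coding genes in between, and their highest levels were in different cell types. The annotated gene Gm37010 overlaps Cd48 on the same strand. Cd48 reached 192 CPM in HPSC of library 1 and 139.9 in library 2, the libraries differing by a factor of 1.37 (1.21 to 1.55). Mo/KC held 141 and 121 CPM and G 56.0 and 58.5 CPM. The pooled HPSC level of 167 CPM (157 to 177) lay above that of Mo/KC, 129.8 CPM (113 to 149). The ratio was 1.35 in library 1 (1.09 to 1.70). In library 2 it was 1.16 (0.935 to 1.44), an interval that held 1. Ery held 7.37 CPM, Mk 5.04 CPM, and EC and Hepa none.

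Slamf1 had its highest level in Mk, the platelet-forming cells. It stood at 59.7 CPM in library 1 (46 UMIs) and 13.8 CPM in library 2 (14 UMIs), a 4.33-fold difference between the libraries (2.34 to 8.52). Of the 135 Mk cells, 23 held a UMI, and 1 cell of library 1 held 12 of the 60 UMIs. Without that cell the pooled level was 27.0 CPM rather than 33.6. The depth and embryonic globin of Mk differed between the libraries as given above, and their part in this difference was not tested. In HPSC there were 10 UMIs of Slamf1 in 10 of 421 cells, 6 in library 1 and 4 in library 2, or 1.52 CPM (0.729 to 2.80). That level could not be told from the 1.92 CPM of Ery (1.497 to 2.42). By number of UMIs, the far more numerous Ery and Eryb cells held 71 and 40 of Slamf1, beside the 60 of Mk. The level in Mk was 22.1 times that in HPSC (11.2 to 48.4). Slamf1 was at the edge of detection in HPSC.

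Cd27 encodes a receptor of the tumor necrosis factor receptor family that binds CD70. The gene (ENSMUSG00000030336) lies on the minus strand at chr6:125232622-125237010. It overlaps Vamp1 on the other strand and Mir8113 on the same strand. Among the 8 genes it was the one most restricted to HPSC. The level there was 104 CPM in library 1 and 109 in library 2, or 106 CPM over both (98.6 to 115). The next type was G with 4.75 CPM, from 18 UMIs, which put HPSC 22.4 times higher (14.1 to 38.0). EC held 3 UMIs, Mk 2, and Mo/KC, EryP and Hepa 1 each.

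The bases just before the annotated starts of 4 of these genes are shown, 5′ to 3′ on the strand of the gene, because these are the 2 SLAM neighbours of unlike pattern, the gene detected in most HPSC cells (Cd34) and the one most restricted to HPSC (Cd27). They are RefSeq promoter entries of GRCm38.p6, trimmed so that no base of the GENCODE gene is included. Capitals mark the only motif match in the 4 windows, TGTGGT, the core of the RUNX motif.
Cd48, chr1:171681742-171681991: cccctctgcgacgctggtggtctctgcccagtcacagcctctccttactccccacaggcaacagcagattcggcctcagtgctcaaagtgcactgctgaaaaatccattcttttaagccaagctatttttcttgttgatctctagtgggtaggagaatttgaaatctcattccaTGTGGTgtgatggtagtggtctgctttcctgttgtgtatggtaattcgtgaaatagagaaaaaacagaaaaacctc
Slamf1, chr1:171766882-171767126: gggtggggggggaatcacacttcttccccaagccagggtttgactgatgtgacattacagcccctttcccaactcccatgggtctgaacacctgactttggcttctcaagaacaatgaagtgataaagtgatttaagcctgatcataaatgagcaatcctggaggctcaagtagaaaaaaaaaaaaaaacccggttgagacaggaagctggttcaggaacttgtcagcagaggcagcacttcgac
Cd34, chr1:194938571-194938818: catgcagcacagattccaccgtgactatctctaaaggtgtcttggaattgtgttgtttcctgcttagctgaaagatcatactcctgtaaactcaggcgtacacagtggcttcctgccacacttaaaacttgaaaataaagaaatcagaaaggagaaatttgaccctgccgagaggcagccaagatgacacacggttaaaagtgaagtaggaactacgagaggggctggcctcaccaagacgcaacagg
Cd27, chr6:125237028-125237277: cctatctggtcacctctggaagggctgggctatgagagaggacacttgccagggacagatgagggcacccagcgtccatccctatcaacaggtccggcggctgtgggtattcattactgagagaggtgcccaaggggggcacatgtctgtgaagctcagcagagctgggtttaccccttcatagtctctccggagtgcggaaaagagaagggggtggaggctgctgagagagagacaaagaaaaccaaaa

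The cores of 3 motifs were looked for on both strands in the 250 bases before each RefSeq start. They were AGATAA, bound by factors of the GATA family, GGAAGT, bound by ETS factors, and TGTGGT, bound by RUNX factors. A RefSeq entry was found for 6 of the 8 genes, all but Ly6a and Cd93. Cd48 held the RUNX core, beginning at position -76 from the start. Ptprc, which has 2 RefSeq starts, held the GATA and the ETS core. Both windows of Ptprc lie wholly inside the GENCODE gene, so these matches are not in bases before it. Part of the Procr window also lies inside its GENCODE gene. Cd34, Procr, Cd27 and Slamf1 held none of the 3. Among all 32851 promoter entries, 9.99% held the GATA core, 19.7% the ETS core and 14.0% the RUNX core, so 1 gene of 6 for each core is near what the entries hold in general. A match is a description of the letters, not a binding site.

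Cd93 encodes a C-type lectin-like receptor found on endothelium and early progenitors. The gene (ENSMUSG00000027435) lies at chr2:148436640-148443563 on the minus strand. EC held 172 CPM in library 1 and 106 in library 2, and HPSC 63.2 and 57.9 CPM. In each library EC stood above HPSC, and the pooled ratio was 2.09 (1.67 to 2.59). G held 15.05 CPM and Mo/KC 6.39 CPM, and Ery was at 0.918 CPM. The 105 UMIs in EC came from 34 of 46 cells, with at most 9 in 1 cell.

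Procr encodes the endothelial protein C receptor, CD201. The gene (ENSMUSG00000027611) lies at chr2:155751117-155755471 on the plus strand. It was a low transcript: HPSC held 25 UMIs in library 1 (7.25 CPM) and 50 in library 2 (16.0 CPM). EC held 19.1 CPM in library 1 and 14.1 CPM in library 2, from 13 UMIs in 10 cells. The pooled intervals of EC, 8.35 to 26.8 CPM, and HPSC, 8.97 to 14.3 CPM, overlapped, and the libraries put them in opposite orders. Mo/KC came next with 4 UMIs (2.56 CPM). Ery held 1 UMI of Procr and Eryb 2. In HPSC the level of library 1 was 0.453 times that of library 2 (0.269 to 0.746). One cell of library 2 held 11 of its 50 UMIs, and without it library 2 stood at 12.52 CPM (8.90 to 17.1).

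Ly6a encodes Sca-1, a lipid-anchored surface protein of mouse stem cells and endothelium. The gene (ENSMUSG00000075602) lies at chr15:74994877-74998031 on the minus strand, among 11 coding Ly6 genes annotated on chromosome 15. Its counts are uncertain to the extent that reads were shared with these related copies. HPSC held 8.70 CPM in library 1 and 9.28 in library 2, from 59 UMIs in 46 cells. EC held 15.3 CPM in library 1 and 58.2 in library 2, or 44.6 CPM over both (31.4 to 61.5). The EC level rested on 1 cell, which carried 24 of the 37 UMIs. Without it EC stood at 15.9 CPM (8.49 to 27.3), which overlapped the HPSC interval of 6.83 to 11.6 CPM. Mo/KC held 6.39 CPM from 10 UMIs in 7 cells, and that interval overlapped the one of HPSC too. Not 1 UMI was found among the 37047461 of Ery, which allows up to 0.0810 CPM.

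A further comparison counted the genes that were at least 2-fold higher, or lower, in HPSC in each library, among genes at 10 CPM or more in either type. Against Ery, 6 of 6 members that reached this level were higher in HPSC (all but Slamf1 and Ly6a, which did not reach it), where 17.1% of all genes were, and 0 were lower, against 6.51% of all genes. Against G, 5 of 6 were higher (Cd34, Procr, Cd27, Cd48 and Cd93) with 5.88% of all genes, and 0 were lower with 6.22%. Ptprc was the exception. Against Mo/KC only Cd27 and Cd93 were higher, 2 of 6 with 8.07% of all genes, and 0 were lower with 9.52%. Against Mk, 5 of 7 were higher (Cd34, Cd27, Cd48, Cd93 and Ptprc) with 7.88% of all genes, and 1, Slamf1, was lower with 9.96%. Procr had 1 UMI in Mo/KC and 0 in Mk of library 1, so the minimum of 3 UMIs kept it from being called against either. By plain counts Procr in HPSC stood 4.92 times above Mo/KC in library 1 and 4.72 times in library 2. Against EC, 4 of 7 were higher (Cd34, Cd27, Cd48 and Ptprc) with 6.17% of all genes, and 0 were lower with 14.6%. No member reached 10 CPM in Ery, so the 6 compared there entered through HPSC alone and could not have been lower. The 5 called higher against Mk also reached it in HPSC alone, and Slamf1 in Mk alone. The same was so of Procr and Cd27 against G, Cd27 and Cd93 against Mo/KC, and Cd27, Cd48 and Ptprc against EC. For all of these the minimum fixed the direction. The members were picked as progenitor markers and the cell types were drawn from the same counts, so these shares describe the list.

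The share of cells with a UMI was compared at equal depth, after each HPSC cell was thinned at random to 8800 UMIs, which left out 42 shallower cells (9 of library 1 and 33 of library 2) and kept 379. Cd34 was found in 353 of them, 93.1% (90.1 to 95.5). Cd48 was found in 61.7%, Cd27 in 54.4%, Cd93 in 42.5% and Ptprc in 36.7%. Procr was found in 6.86% (26 cells), Ly6a in 6.33% (24 cells) and Slamf1 in 1.58% (6 cells). For each of the 8 genes the intervals of the 2 libraries overlapped. Without thinning the shares were 94.8% for Cd34, 72.2% for Cd48, 67.2% for Cd27, 55.8% for Cd93, 54.2% for Ptprc, 10.9% for Ly6a, 9.26% for Procr and 2.38% for Slamf1.

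**Figure D2:**
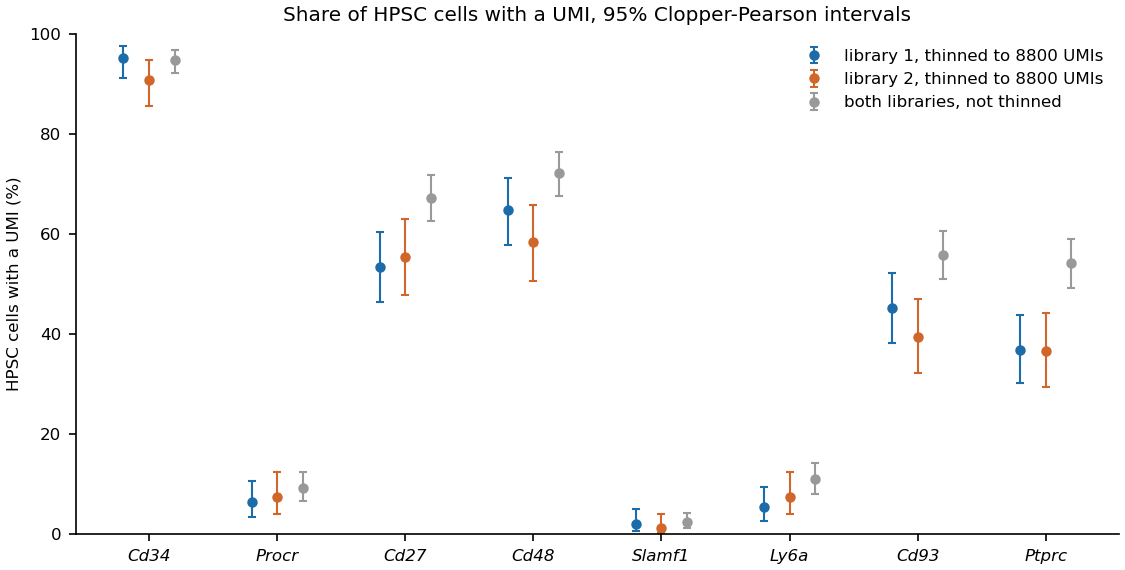
Percentage of HPSC cells with at least 1 UMI of each gene, for each library after thinning to 8800 UMIs and for both libraries without thinning, with 95% Clopper-Pearson intervals. Cd34 lies at 95.1% in library 1 and 90.9% in library 2, and Procr, Slamf1 and Ly6a lie at the bottom of the axis in both.

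To set the cell types side by side, all cells were thinned to 3600 UMIs. These shares come from 1 random draw. Cd34 was then found in 74.7% of HPSC, 51.0% of Mo/KC, 33.5% of G, 33.3% of EC and 2.01% of Ery. Averaged over all possible draws its shares were 70.6%, 45.8%, 28.6%, 36.7% and 1.68%. Cd48 was found in 40.3% of HPSC (35.6 to 45.2) and 32.7% of Mo/KC (23.8 to 42.6), and in 0 of 45 EC cells. The intervals of HPSC and Mo/KC overlapped, and averaged over draws the shares were 38.8% and 36.4%. Without thinning it was found in 0 of 46 EC cells, which allows a share of up to 6.52%. Cd93 was found in 33.3% of EC (35.3% averaged over draws). Slamf1 was found in 12.7% of Mk (10.6% averaged over draws). Before thinning the medians were 22846 UMIs for Ery and 15462 for HPSC. After it, the share of Ery cells with a UMI was 2.88% for Cd48 and 0.188% for Cd27. Averaged over draws these shares were 3.02% and 0.353%. In Eryb the averaged shares were lower, at 0.284% for Cd48 and 0.117% for Cd27.

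Each thinned HPSC cell held a median of 3 of the 8 transcripts. Among the 379 cells, 1 held none, 136 held 3, 3 held 6 and none held 7 or 8. Without thinning the median was 4 of 8. All 26 cells with Procr also held Cd34, as did 327 of the 353 others. Without thinning 37 of 39 Procr cells held Cd34 (94.9%), and so did 94.8% of the others. The combination used to enrich adult stem cells with antibodies, Slamf1 without Cd48, was found in 1 of 379 thinned cells (0.264%, 0.00668 to 1.46) and in 2 of 421 cells without thinning. In contrast, 229 cells (60.4%) held Cd48 without Slamf1. Since Slamf1 was at 1.52 CPM in HPSC, its absence from a cell was not detectable at this depth, and transcripts do not give the amount of protein at the surface.

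Of the 28 pairs of genes, 1 had shares whose intervals did not overlap between thinned cells with and without the other gene, and this held when read in 1 direction only. Cd48 was found in 9 of the 26 cells with Procr, 34.6% (17.2 to 55.7), and in 225 of the 353 without, 63.7% (58.5 to 68.8). Read the other way, Procr was found in 3.85% of cells with Cd48 (1.77 to 7.18) and in 11.7% of those without (6.98 to 18.1), and these intervals overlapped. Cd48 was found among cells with and without Procr in 38.5% and 66.5% in library 1 and in 30.8% and 60.5% in library 2, with overlapping intervals within each library. No thinned cell held Procr with Slamf1, or Ly6a with Slamf1. Slamf1 was found in only 6 thinned cells, too few for an absent overlap to be read as exclusion. Procr with Slamf1 was the only pair also absent without thinning. Without thinning the lower share of Cd48 among Procr cells remained (35.9% against 75.9%), and 4 further pairs had intervals that did not overlap. Ly6a was found in 13 of 39 Procr cells (33.3%) and in 8.64% of the others, and Ptprc in 33.3% and 56.3%. Cd48 was more common among cells with Cd34 (74.2% against 36.4%), and Cd34 among cells with Cd27 (97.2% against 89.9%). Deep cells hold more of every transcript, so shares without thinning move with depth.

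HPSC cells were grouped by transcripts of other lineages. At least 2 UMIs of the early granule genes Mpo, Prtn3, Elane and Ctsg, which encode proteases and peroxidase of neutrophil granules, were found without erythroid transcripts in 296 of 379 thinned cells. Neither these nor at least 2 UMIs of the erythroid genes Gata1, Klf1, Car1 and Epor were found in 59 cells, erythroid transcripts alone in 5 and both lists in 19. The granule genes were not found alike: of the 353 thinned cells with Cd34, 291 held Mpo and 4 held Elane. Cd48 and Procr had the ratios farthest from 1 between the first 2 groups, in opposite directions, but that of Procr rested on 1 cell.

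Cd48 stood at 189 CPM in cells with granule transcripts alone and at 73.5 CPM in cells with neither list, 2.58 times higher (2.01 to 3.35). Library 1 gave 215 against 78.1 CPM and library 2 gave 159 against 69.1 CPM. Procr stood at 6.50 CPM and 23.8 CPM, a ratio of 0.273 (0.154 to 0.494). The 2 libraries differed here: Procr in cells with neither list was 35.6 CPM in library 2 but 11.2 CPM in library 1, where the ratio of 0.601 (0.215 to 2.07) did not show a difference. The cell of library 2 with 11 UMIs was in the group with neither list. Without it Procr there stood at 12.83 CPM in library 2, and the pooled ratio of 0.541 (0.266 to 1.19) had an interval that held 1. Leaving out the cell with most UMIs of Cd48 gave a ratio of 2.54 (1.99 to 3.30). Cd34 was 1.23 times higher with granule transcripts (1.09 to 1.40), at 405 against 321 CPM in library 1 and 391 against 325 CPM in library 2. Ptprc was lower with them, 48.7 against 72.4 CPM, but in library 2 alone the interval of the ratio (0.552 to 1.29) held 1. Cd93, Ly6a and Slamf1 had pooled ratios whose intervals held 1. For Cd27 the pooled ratio was 1.18 (0.937 to 1.49), but the libraries differed, with 0.864 (0.640 to 1.19) in library 1 and 1.68 (1.18 to 2.46) in library 2. When 1 UMI of a list was enough to place a cell, the pooled ratio of Cd27 was 1.55 (1.07 to 2.30). By library it was then 1.03 (0.643 to 1.74) in library 1 and 2.43 (1.36 to 4.77) in library 2.

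**Figure D3:**
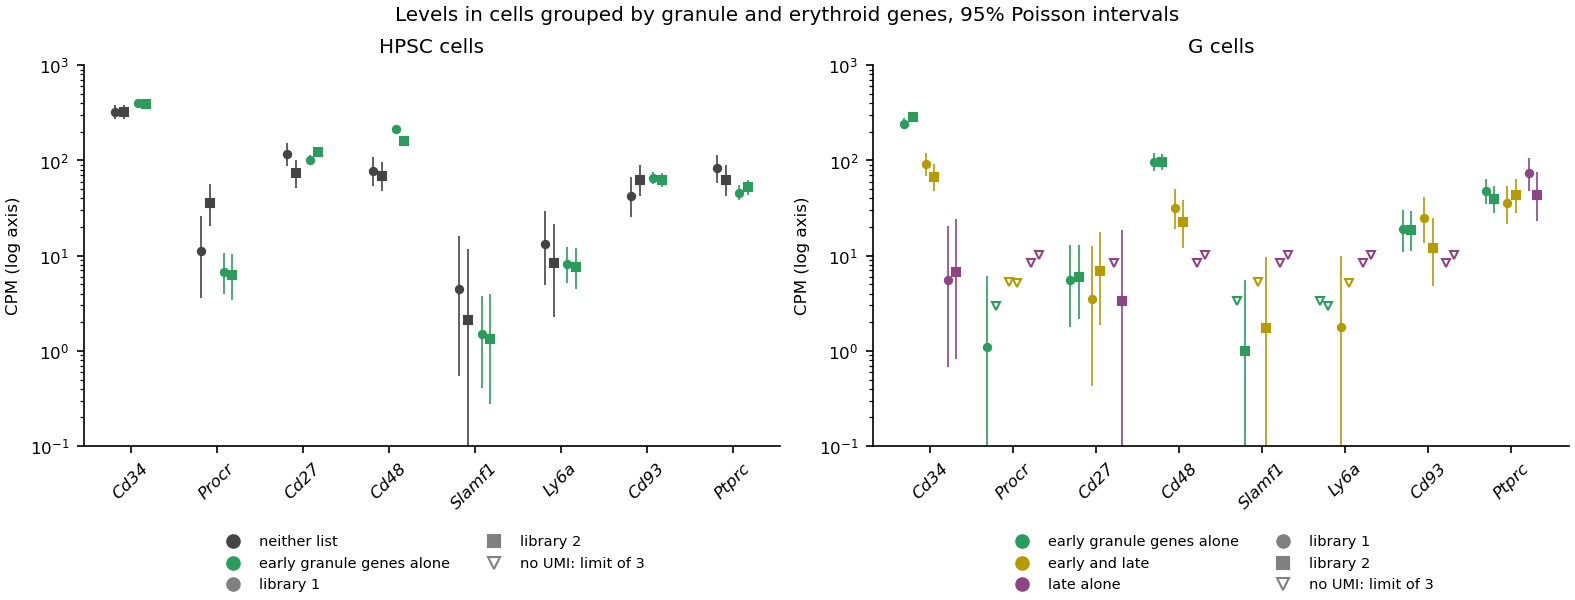
Levels of the 8 genes (CPM, log axis) in HPSC cells with neither list or with early granule genes alone, and in G cells grouped by early and late granule genes, for each library with 95% Poisson intervals. In HPSC cells Cd48 is higher with granule transcripts in both libraries, and in G cells Cd34 and Cd48 are lower with late granule genes, while the intervals of Ptprc overlap.

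HPSC cells with and without each gene were also compared for a list of 7 stem cell factor genes: Hlf, Mecom, Meis1, Hoxa9, Mycn, Gata2 and Mllt3, which encode transcriptional regulators active in stem and early progenitor cells. Of these, Hlf, Hoxa9 and Mycn had their highest level in HPSC, Gata2 and Meis1 in Mk, Mllt3 in Eryb and Mecom in EC. The list summed to 352 CPM in HPSC, 299 CPM in Mk and 258 CPM in Eryb, so its sum is not particular to HPSC. Cells with a thinned UMI of Procr held 818 CPM of the list in sum and the others 315 CPM, a ratio of 2.59 (2.28 to 2.94). The ratio was 2.35 in library 1 and 2.89 in library 2. Hlf was 3.64 times higher in Procr cells (2.57 to 5.06), Mecom 6.26 times (2.84 to 12.8, from 11 UMIs), Mllt3 2.80 times, Mycn 2.72 times, Hoxa9 2.38 times and Meis1 2.35 times. Gata2 differed between the libraries, with a ratio of 0.698 in library 1 and 2.24 in library 2. By cells, Hlf was found in 16 of 26 cells with Procr (61.5%) and in 86 of 353 without (24.4%), with 8 of 13 cells in each library. The shares of Mllt3 (26.9% against 15.6%) and Gata2 (34.6% against 24.6%) had overlapping intervals. Those of Mecom, Meis1, Hoxa9 and Mycn did not overlap. Early granule transcripts were lower in Procr cells, 729 against 1347 CPM, with 903 against 1303 CPM in library 1 and 543 against 1398 CPM in library 2. By cells, Mpo was found in 10 of 13 Procr cells of library 1 (76.9% against 80.1% of the others) and in 6 of 13 of library 2 (46.2% against 82.1%), where the intervals did not overlap.

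Cells with Ly6a (24 thinned cells) held 599 CPM of the same list against 328 CPM in the others, a ratio of 1.83 (1.58 to 2.11), and the libraries gave 1.83 and 1.84. Hoxa9 was 2.31 times higher in them (1.71 to 3.07) and Mycn 1.88 times. By cells, the shares of Hoxa9 (75.0% against 38.3%) and Gata2 (50.0% against 23.7%) had intervals that did not overlap. Those of Mycn (66.7% against 45.4%), Hlf (29.2% against 26.8%), Meis1, Mecom and Mllt3 overlapped. For Gata2 the libraries differed, with 72.7% against 24.4% in library 1 and 30.8% against 22.8% in library 2. Cells with Cd48 were lower for the list, 312 against 394 CPM (ratio 0.791, 0.725 to 0.862). Among its genes Mecom (0.362), Hoxa9 (0.535), Hlf (0.672) and Mycn (0.740) were lower and Gata2 was higher (2.23), and Meis1 (0.987) and Mllt3 (0.864) had intervals that held 1. By cells the shares of Hoxa9 (38.5% against 44.1%), Mycn (46.2% against 47.6%), Hlf (24.4% against 31.0%) and Mecom (4.27% against 12.4%) had overlapping intervals, and those of Gata2 (30.8% against 16.6%) did not. The shares of Hlf went in opposite directions by library, with 30.3% against 27.8% in library 1 and 16.7% against 34.2% in library 2. Flt3, a cytokine receptor gene of lymphoid and early progenitors, was also lower in Cd48 cells, at 57.7 against 97.5 CPM. By cells the shares of Flt3 (34.2% against 46.2%) had overlapping intervals, with 39.4% against 44.4% in library 1 and 27.5% against 47.9% in library 2. Kit, the receptor gene after which the study is named, had ratios whose intervals held 1 for Procr (1.03), Ly6a (1.27) and Cd48 (1.05). Only the counting of UMIs is covered by these intervals, and 24 or 26 cells are few.

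**Figure D4:**
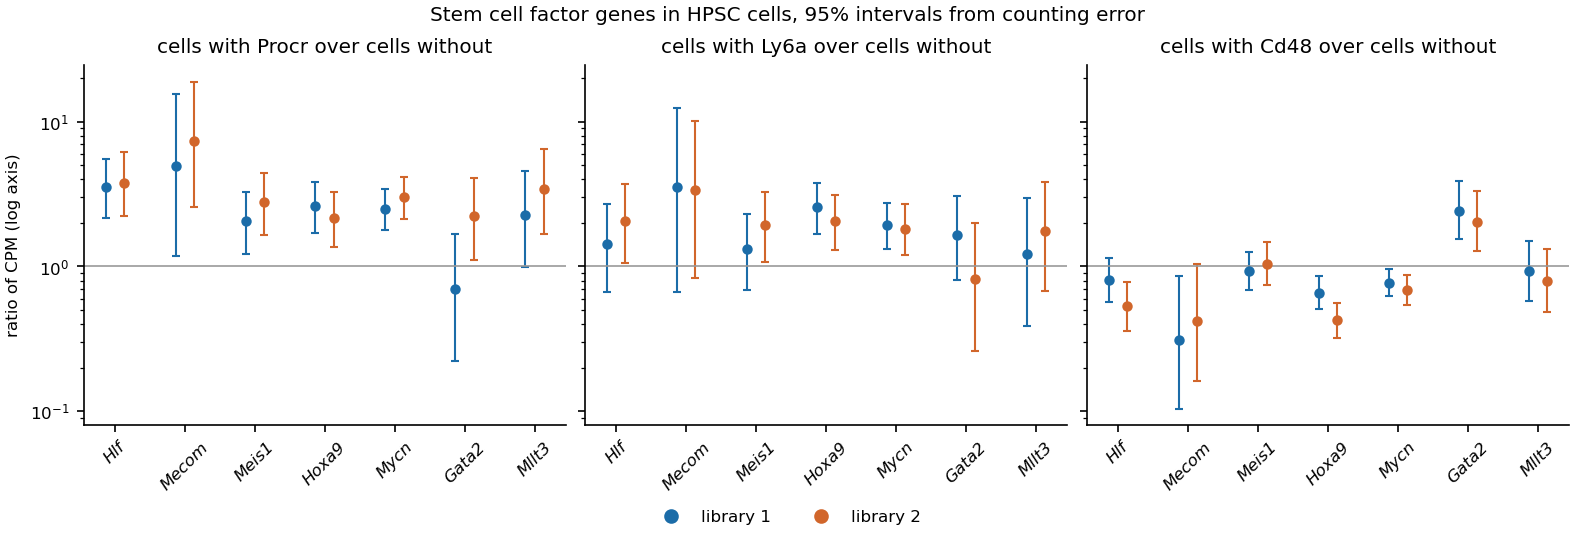
Ratio of the level (CPM) of each of 7 stem cell factor genes in HPSC cells with a thinned UMI of Procr, Ly6a or Cd48 to that in cells without (log axis), for each library, with 95% intervals. For Procr, Hlf, Mecom, Meis1, Hoxa9 and Mycn lie above 1 in both libraries, and for Cd48, Hoxa9 and Mycn lie below 1 in both.

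G cells were grouped by early granule genes and by late ones (Ngp, Camp, Ltf, S100a8 and S100a9, which encode granule and calcium-binding proteins of maturing neutrophils). With early genes alone (102 cells) Cd34 stood at 265 CPM, with both (77 cells) at 79.4 CPM, and with late genes alone (85 cells) at 6.12 CPM from 4 UMIs. Cd48 stood at 96.6 and 27.0 CPM, and no UMI was found with late genes alone. Cd93 stood at 18.8 and 18.3 CPM and was likewise not found with late genes alone. Ptprc did not follow them: it held 43.3, 39.2 and 59.7 CPM, and the ratio of early to late cells, 0.726 (0.490 to 1.09), had an interval that held 1. When 1 UMI of a list was enough, the pooled ratio was 0.630 (0.409 to 0.985), with 0.554 (0.313 to 0.995) in library 1. In library 2 it was 0.815 (0.402 to 1.79), an interval that held 1. The directions for Cd34 and Cd48 were the same in both libraries. Cd27 was low in all 3 groups, from 1.53 to 5.74 CPM.

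Mo/KC cells were grouped by the complement genes C1qa, C1qb and C1qc, which tissue macrophages make in quantity. Cd34 stood at 347 CPM in the 71 cells without complement transcripts and at 136 CPM in the 33 cells with them, a ratio of 2.55 (1.91 to 3.48), with 2.00 in library 1 and 3.63 in library 2. Cd48 did not differ beyond counting error, at 133 and 120 CPM, a ratio of 1.11 (0.792 to 1.57). All 10 UMIs of Ly6a in the cells grouped were in those without complement transcripts.

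Among erythroid cells most of these transcripts were in 1 of the 2 deposited subclusters that make up Ery. Ery 1 (734 cells) held Cd48 at 13.4 CPM (11.8 to 15.2), Cd34 at 6.21 CPM, Ptprc at 2.98 CPM, Slamf1 at 2.87 CPM and Cd93 at 1.72 CPM. Ery 2 (1016 cells) held Cd48 at 0.894 CPM, Cd34 at 1.23 CPM, Ptprc at 0.280 CPM and Cd93 at 0.0559 CPM. In Ery 1 the 257 UMIs of Cd48 came from 138 cells. Cd27 was as low in Ery 1 (0.679 CPM) as in Ery 2 (0.615 CPM).

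The 24 other surface genes that were followed beside the members had their highest level in many different types. In HPSC it was 7 of 24: Kit (50.5 CPM), Flt3 (72.9 CPM), Itga4 (76.7 CPM), Adgrg1 (229 CPM), Cd244 (10.2 CPM), Il7r (12.47 CPM) and Thy1 (1.22 CPM, 8 UMIs). CD244 is the receptor that binds CD48. Flt3, like Cd27, was low in the other types, with 4.48 CPM in Mo/KC and 3.17 CPM in G. Esam and Cd38 were highest in EC at 509 and 195 CPM and stood at 20.1 and 0.761 CPM in HPSC. Ly6e, a relative of Ly6a, was highest in Mo/KC at 1044 CPM and stood at 326 CPM in HPSC.

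For each gene the 2 most similar genes were sought, by Pearson's r of log2(CPM + 1) over the 9 cell types in each library, taking the lower of both libraries, among 7230 genes. Procr, Slamf1 and Ly6a did not themselves reach the 20 CPM in a type of each library that was asked of the genes compared, and the Ly6a level of EC rested on 1 cell, so their values rest on few UMIs. The 9 points share 1 liver, the libraries and the clustering, and the values are a description. Cd34 was most like Il16 (0.981) and Rcsd1 (0.977), Cd48 most like Fmnl1 (0.990) and Dock2 (0.984), and Ptprc most like Coro2a (0.989) and Cd69 (0.986). Cd27 was most like the homeobox genes Hoxa9 (0.917) and Hoxa7 (0.907). Cd93 was most like the endothelial genes Erg (0.956) and Thsd1 (0.943), Procr most like Emcn (0.923) and Prkch (0.900), and Ly6a most like Prkch (0.912) and Hivep3 (0.907). Slamf1 was most like Gp5 (0.934), which encodes a platelet glycoprotein, and Mdm1 (0.926). Among the members, Cd48 and Ptprc were the most alike (0.972 in library 1 and 0.986 in library 2), followed by Procr and Ly6a (0.928 and 0.929).

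Free RNA, read from barcodes with 1 to 50 UMIs, held each of the 8 transcripts. Cd34 stood at 37.0 CPM in library 1 and 34.2 in library 2, Cd48 at 25.8 and 13.3 CPM, and Ptprc at 19.2 and 6.63 CPM. Ly6a stood at 27.9 CPM in library 1 and 3.06 in library 2, and in library 1 this was above its level in HPSC. The same was so of Slamf1, at 4.05 CPM in library 1 (8 UMIs) and 1.02 CPM in library 2 (2 UMIs), against 1.74 CPM in HPSC of library 1. If free RNA made up 20% of the UMIs of a cell, it would give 21.1 of the 59 UMIs of Ly6a in HPSC and 3.43 of the 10 UMIs of Slamf1, 2.42 of the 75 of Procr and 46.9 of the 2481 of Cd34. Over both libraries, the count of each gene in HPSC lay above that amount. In Mk the counts of Cd34, Procr, Cd27, Cd48, Ly6a, Cd93 and Ptprc lay within the interval of that amount and that of Slamf1 above it. In library 1 alone, HPSC held 6 UMIs of Slamf1 where cells made of free RNA alone would give 14.0. For Ly6a they held 30 UMIs where such cells would give 96.1. In Ery the limit differed by gene and library. Ery of library 1 held 0 UMIs of Ly6a where cells made of free RNA alone would give 531, and the limit of 3 UMIs allows a share of up to 0.565%. In library 2, where free RNA held less Ly6a, the same limit allows up to 5.45%. The counts of Cd34 in Ery allow up to 9.65% in library 1 and 11.9% in library 2.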

How the data were processed

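Single-cell RNA-seq was made of 1 wild-type E12.5 mouse liver in 2 technical replicate libraries. The authors deposited raw counts of UMIs per gene and barcode for each library, once with every barcode and once with the barcodes kept by cell calling, besides a table giving the cluster and cell type of each cell name, which carries no unit. Per the labels, Cell Ranger 2.1.1, Seurat 3.2.0 and the mm10 genome were used. The header of the counts of library 1 names another software version than the labels. The part of this in differences between the libraries was not tested. The strand setting of the counting is not given in the sources used here. Levels were summed UMIs per 1000000 (CPM) with exact Poisson intervals, shares had Clopper-Pearson intervals, and ratios had exact conditional intervals, all at 95%, which cover counting error alone. Where no UMI was counted, 3 UMIs were taken as the limit. In the 2-fold comparison the count of the other type was set to 3 UMIs where it was lower. Depth over the kept cells was 51969226 UMIs (library 1) and 62738015 UMIs (library 2). HPSC cells were thinned once (seed 1) to 8800 UMIs, the 10th percentile rounded down to a multiple of 100, and cells of all types to 3600, the same percentile of the type with the lowest median (EryP). Groups of cells were set on thinned counts, and their levels come from all UMIs of those cells. Per the study's supplement, doublets were removed by sorting before the droplet run. No doublet calling was done here on the counts, so droplets that held 2 cells were not looked for.

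The genes named are the 8 members, 24 companion surface genes (1 of which is not reported here), 7 stem cell factor genes, the genes of the groupings and markers, and the 2 genes most like each member among those at 20 CPM or more in a cell type of each library. The members and lists were chosen with earlier results of these data known. Positions came from GENCODE vM21 (GRCm38), and promoter entries from RefSeq (GRCm38.p6). On simulated data, both the intervals and the thinning were tested. The software was matplotlib 3.10.9, scipy 1.17.1, pandas 2.3.3, numpy 2.4.6 and Python 3.11.15. Alternatives were each library alone, stricter cell filters, cells weighted equally, other depths, at least 2 UMIs, and other folds and minimums. Levels without the cell that held most UMIs of a gene were added after the data were seen.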

Additional observations from a re-analysis of the deposited data

Results flagged for a closer look

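Barcodes that were not called as cells but held at least 1000 UMIs and 200 genes were looked at apart from the comparisons above. Library 2 had 3311 of them and library 1 had 168. Whether the other software version named for library 1 had a part in this was not tested. In library 2 the level of Cd34 in them was 24.2 CPM (163 UMIs), of Cd48 13.8 CPM (93 UMIs), of Ptprc 5.64 CPM (38 UMIs), of Cd27 4.30 CPM (29 UMIs), of Cd93 3.41 CPM (23 UMIs) and of Slamf1 1.78 CPM (12 UMIs). Each was listed because its count was above the 3 UMIs that a count of 0 allows, with no control sample to set it against. In free RNA of the same library Cd34 stood at 34.2 CPM and Cd48 at 13.3 CPM. In library 1 no member had more than 3 UMIs in these barcodes, which held 395815 UMIs in all.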

How the results depend on the processing

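The levels in HPSC changed by less than their counting interval under the stricter cell filters (at least 1000 genes and under 10% mitochondrial UMIs, or without the 5% of cells with most UMIs). Between the libraries 2 genes moved: Procr ranged from 7.25 to 16.0 CPM and Cd48 from 139.9 to 192 CPM without 1 library. With each cell weighed the same, Procr was 17.8 CPM. No thinning gave shares of HPSC cells of 67.2% for Cd27, 72.2% for Cd48, 10.9% for Ly6a, 55.8% for Cd93 and 54.2% for Ptprc. With thinning to 4400 UMIs they were 75.7% for Cd34, 38.4% for Cd27, 46.8% for Cd48, 4.06% for Ly6a, 24.8% for Cd93 and 23.6% for Ptprc. Asking for at least 2 UMIs gave 79.9% for Cd34, 1.58% for Procr, 27.7% for Cd27, 36.4% for Cd48, 0% for Slamf1, 1.32% for Ly6a, 12.9% for Cd93 and 8.97% for Ptprc. At a 4-fold threshold 2 of 6 members were higher in HPSC than in G rather than 5, with 1.87% of all genes rather than 5.88%. Against EC 3 of 7 were higher rather than 4, with 1.8% of all genes rather than 6.17%. Of 64 levels in other cell types, 9 moved without replicate 1 and 19 without replicate 2. Leaving out the cell with most UMIs of a gene, chosen after seeing the data, moved 0 of 8 levels in HPSC and 13 of 51 elsewhere; all but Ly6a in EC (15.9 CPM) fell to 0 from 1 UMI. The same step took the Procr ratio between HPSC cells with granule transcripts and with neither list from 0.273 to 0.541. With 1 UMI of a list enough, 3 of 32 levels in grouped HPSC cells moved. The pooled Cd27 ratio became 1.55 (1.07 to 2.30) and the pooled Ptprc ratio of early to late G cells 0.630, each with 1 library whose interval held 1. Of 28 pairs, 16 moved without thinning. The cause was not tested. No paired analysis was possible because there was 1 group and no test. With 1 liver, no spread between animals is known, and the 46 EC cells and the low counts of Slamf1, Procr and Ly6a limit the depth behind these values.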
